A study of Rattus norvegicus with 4 samples.

Results

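The 10 genes described here were Slc2a1, Hk1, Hk2, Pfkm, Pfkl, Aldoa, Pgk1, Pkm, Ldha and Bnip3, chosen by symbol out of 54532 genes in the count table. They cover glucose uptake, 8 enzymes of glycolysis and lactate formation, and 1 regulator of mitophagy. Aldoa stood on 2 rows of the table, so the 10 genes had 11 rows, and the second Aldoa row, a gene model of 799 bases, was at 0 in every library. The 4 RNA-seq libraries came from ear skin of 2 Sprague Dawley rats, taken at the injection sites on day 3. One ear of each rat had received adeno-associated virus carrying Fgf7 (AAV-Fgf7, labelled Fgf7 overexpression), and the other ear control virus (labelled wt), which left 2 AAV-Fgf7 and 2 control libraries. All 4 ears had thus received a virus, and the sources used here give neither the promoter driving Fgf7 nor the age or sex of the rats. The sample titles and the series' design text give opposite sides for the 2 viruses, so ear side was not used, and the second AAV-Fgf7 column was placed with rat 2 by its number and title.

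Glycolysis splits glucose into pyruvate, which lactate dehydrogenase can turn into lactate. Several of its steps have more than one gene. Hk2, Pfkm and Aldoa are the forms rich in skeletal muscle, whereas Hk1, Pfkl, Slc2a1 and Pgk1 are found in most tissues. In the epidermis, dividing keratinocytes take up glucose largely through the transporter made by Slc2a1. Bnip3 lies on the outer mitochondrial membrane, marks mitochondria for removal by autophagy, and is, like Slc2a1, Pgk1 and Ldha, a well-known target of the hypoxia-inducible factors.

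Each library held between 1299136 and 1601321 counts, spread over 12902 genes. Levels are given as CPM, counts scaled to a common library size with TMM factors, on which 1 count was worth 0.658 to 0.751 CPM. Fgf7 itself had 317 and 979 CPM in AAV-Fgf7 ears of rats 1 and 2, against 70.6 and 72.4 CPM in control ears of rats 1 and 2. The basal keratinocyte keratin Krt14 (692 and 1579 CPM in AAV-Fgf7 ears, 416 and 366 CPM in control ears) was abundant in every library. Of 8 suprabasal markers, Flg, Ivl and Krtdap were at 0 and Krt1 had at most 1 count in a library, whereas Krt10 had 843 and 2541 CPM in AAV-Fgf7 ears, against 899 and 576 CPM in control ears. Skeletal muscle RNA was present in every library. The summed CPM of 23 muscle genes was 37453 and 18976 in AAV-Fgf7 ears of rats 1 and 2, against 17270 and 72105 in control ears of rats 1 and 2, with Tnnc2 and Casq1 at 0 throughout. The control ear of rat 2 had the highest muscle sum, and the AAV-Fgf7 ear of rat 1 the next. The 10 genes together took up 0.325% to 0.675% of a library.

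None of the 8 genes that could be tested passed between AAV-Fgf7 and control ears. The test, edgeR's quasi-likelihood F test, two-sided, with Benjamini-Hochberg adjustment, was run on the 6370 genes that passed a low-count filter. It called 0 of them (0%) at an adjusted p under 0.05, with 148 (2.32%) under 0.05 before adjustment, and DESeq2 called 4 genes (0.0628%), none of them among the 10. Of the 10 genes, 8 were tested, and Hk2 and Pfkl had too few counts. Of the 8 tested, 2 had an unadjusted p under 0.05 by edgeR, Hk1 on the higher side (1.71% of all tested genes) and Bnip3 on the lower side (0.612%). By DESeq2, 1 of them, Bnip3, was under 0.05 before adjustment, against 1.32% of all tested genes. The same 2 genes, Hk1 and Bnip3, were the ones whose 2 groups did not overlap, and 28.1% of all tested genes did not overlap either (14.8% higher and 13.3% lower in both AAV-Fgf7 ears). The log2 fold change was negative in 6 genes and positive in 2, with a median of -0.18 against -0.02 over all tested genes. With 2 libraries a group, an exact two-sided permutation test of a single gene cannot go below 0.33. Each of the 8 genes had an edgeR adjusted p = 0.9995, which is not repeated below for every gene.

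**Figure D1:**
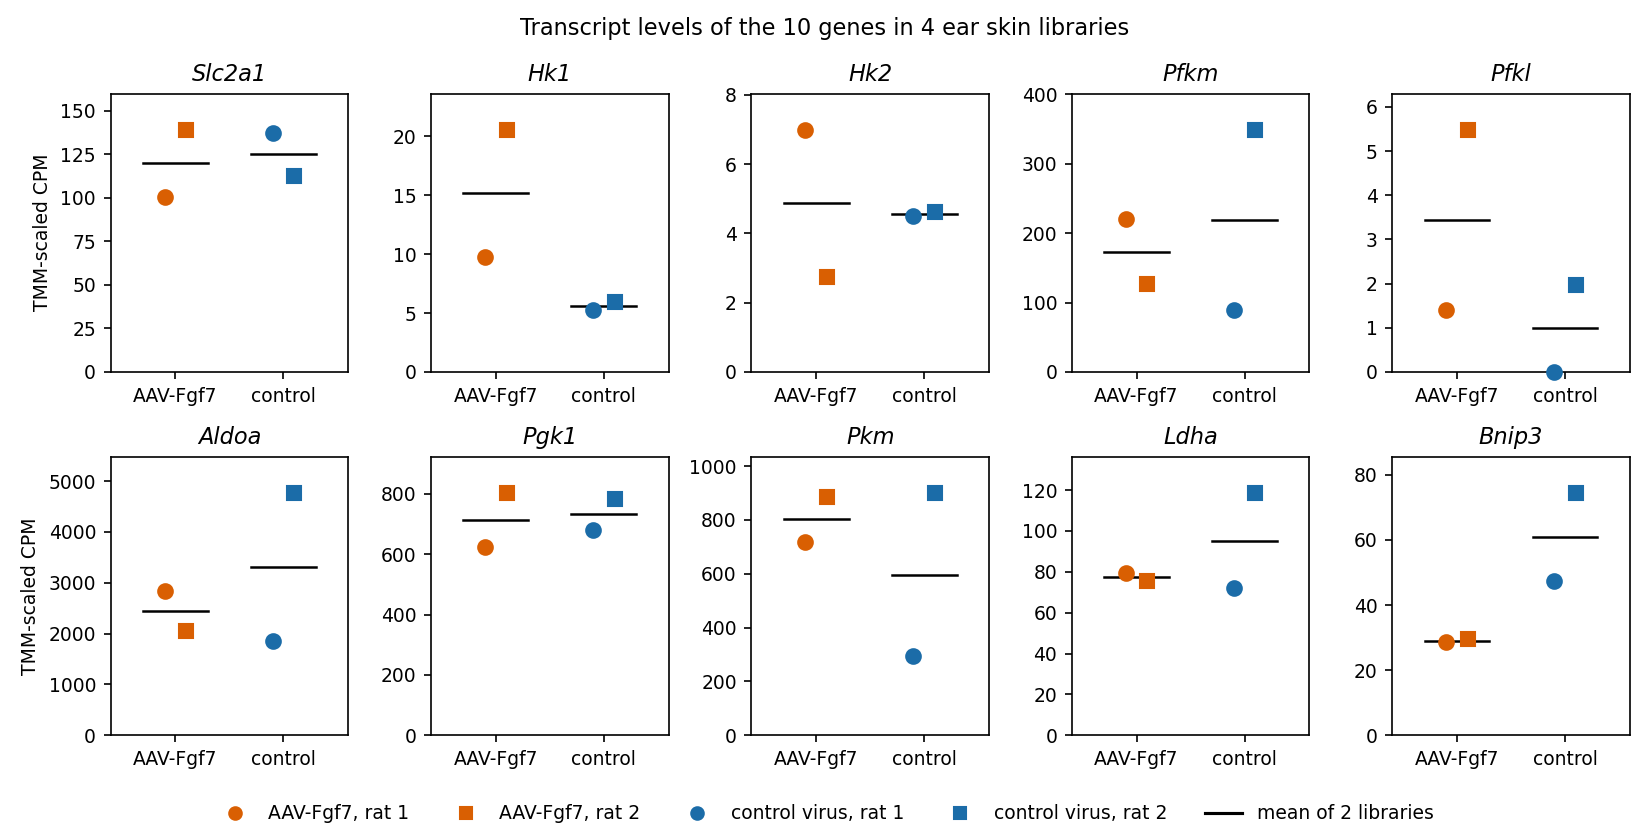
Level of each of the 10 genes in each library, in TMM-scaled CPM, with a separate linear axis per gene; points are libraries (circles rat 1, squares rat 2) and bars are the means of 2 libraries, AAV-Fgf7 left and control right. In Hk1 both AAV-Fgf7 points lie above both control points, and in Bnip3 both lie below. In Pfkm, Aldoa, Pkm and Ldha the control ear of rat 2 is the highest point and the control ear of rat 1 the lowest.

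On the scale per gene length (FPKM), Aldoa, Pgk1 and Pkm were the 3 highest of the 10 genes in every library, in that order. Aldoa ranged from 631 to 1624 FPKM, Pgk1 from 275 to 354 FPKM and Pkm from 58.5 to 178 FPKM. These 3 ranges did not meet. Pfkm, Slc2a1, Ldha and Bnip3 followed, and their order changed from library to library, with Slc2a1 above Bnip3 except in the control ear of rat 2. Hk1, Hk2 and Pfkl were the lowest, at no more than 2.39 FPKM in any library.

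Transcript levels of the glucose transporters Slc2a1 and Slc2a4 overlapped between the groups. Slc2a1, the basal glucose transporter, had 101 and 139 CPM in AAV-Fgf7 ears of rats 1 and 2, against 137 and 113 CPM in control ears of rats 1 and 2. The 2 groups overlapped, and the AAV-Fgf7 ear was the lower of the pair in rat 1 and the higher in rat 2. Its log2 fold change was -0.06 (SE 0.25). Slc2a4, the insulin-responsive transporter of muscle and fat, had 76.2 and 32.9 CPM in AAV-Fgf7 ears, against 36.8 and 125 CPM in control ears, a log2 fold change of -0.58 (SE 0.64).

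Hexokinase traps glucose in the cell by phosphorylation. The Hk1 row, ENSMUSG00000037012, is a mouse gene model on the minus strand at chr10:62268855-62379908, in a build the sources used here do not name. Hk1 had 9.78 and 20.5 CPM in AAV-Fgf7 ears of rats 1 and 2, against 5.26 and 5.93 CPM in control ears of rats 1 and 2. Both AAV-Fgf7 ears were above both control ears, and the ear of rat 2 was the higher of the AAV-Fgf7 pair. The ratio within a rat was 1.86 in rat 1 and 3.47 in rat 2. The means were 15.2 ± 7.61 CPM in AAV-Fgf7 ears and 5.59 ± 0.472 CPM in control ears (SD, n = 2 each). The log2 fold change was 1.42 (SE 0.57, edgeR adjusted p = 0.9995), which placed Hk1 at rank 58 of 6370 from the highest fold change and at rank 139 by p. These levels rested on 14 and 30 counts in AAV-Fgf7 ears and 7 and 9 counts in control ears. Exact 95% Poisson intervals, which cover counting error only, ran from 5.35 to 16.4 and from 13.9 to 29.3 CPM in AAV-Fgf7 ears, against 2.11 to 10.8 and 2.71 to 11.2 CPM in control ears. The rat 1 intervals overlapped and those of rat 2 did not. Before adjustment Hk1 was no longer under 0.05 by DESeq2 or by edgeR with the rat as a block (log2 fold change 1.36), and without the AAV-Fgf7 ear of rat 2 the log2 fold change was 0.79 (SE 0.84). It was not under 0.05 without either control ear either, and on FPKM with a pseudocount of 1 the log2 fold change was 0.70.

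The sum of the basal keratinocyte markers was, like Hk1, highest in the AAV-Fgf7 ear of rat 2. The markers summed to 1893 and 3638 CPM in AAV-Fgf7 ears, against 1230 and 1139 CPM in control ears. All 8 were counted and 7 were tested, none of which passed by edgeR. By DESeq2 Sfn, a gene of the list that is not restricted to basal keratinocytes, passed (DESeq2 adjusted p = 0.0295). So did 0.0628% of all tested genes. The log2 fold changes of the 7 markers by edgeR were all positive, with a median of 0.90. Of the 7, 4 had both AAV-Fgf7 ears above both control ears, against 14.8% of all tested genes. The groups of Itgb4, Krt15 and Itga6 overlapped, and in rat 1 these 3 genes were lower in the AAV-Fgf7 ear than in the control ear. Among the 3 tested protein-coding genes whose levels over the 4 libraries were nearest to Hk1, by the root mean square difference in log2 CPM centred on each gene's mean, were Serpinb5 (0.0998) and Krt5 (0.140). Krt5, a basal keratin, had 335 and 853 CPM in AAV-Fgf7 ears, against 218 and 230 CPM in control ears. Serpinb5, also called maspin, had 48.2 and 113 CPM in AAV-Fgf7 ears, against 33.1 and 36.9 CPM in control ears. Whether keratinocyte RNA plays a part in the Hk1 difference was not tested, and in bulk tissue more or fewer cells of a type and more or less RNA per cell cannot be told apart.

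Hk2, the hexokinase of muscle and of many dividing cells, had 6.99 and 2.74 CPM in AAV-Fgf7 ears of rats 1 and 2, against 4.51 and 4.61 CPM in control ears of rats 1 and 2. It had 4 to 10 counts in a library and was not tested after the filter, and the 2 groups overlapped. With no filter its log2 fold change was 0.09 (SE 0.77). On FPKM the ratio of Hk2 to Hk1 was 1.02 and 0.191 in AAV-Fgf7 ears, against 1.23 and 1.11 in control ears. The ratio was lowest in the AAV-Fgf7 ear of rat 2, where it rested on 4 counts of Hk2 and 30 of Hk1.

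Phosphofructokinase sets the pace of glycolysis, and the muscle form was counted far more often than the liver form. Pfkm had 220 and 127 CPM in AAV-Fgf7 ears of rats 1 and 2, against 89.4 and 349 CPM in control ears of rats 1 and 2. The control ears held both the lowest and the highest value, 3.90-fold apart. The means were 173 ± 66.0 CPM in AAV-Fgf7 ears and 219 ± 183 CPM in control ears (SD, n = 2 each). The ratio of the AAV-Fgf7 to the control ear was 2.46 in rat 1 and 0.363 in rat 2, so the direction differed between the rats, and the log2 fold change was -0.34 (SE 0.62). Without the control ear of rat 2 it was 0.96 and without the control ear of rat 1 it was -1.01. Pfkl, the liver form found in most tissues, had 2 and 8 counts in AAV-Fgf7 ears, against 0 and 3 counts in control ears, and was not tested after the filter. A count of 0 in the control ear of rat 1 allows up to 2.25 CPM (3 counts), and with no filter the log2 fold change was 1.66 (SE 1.33). The FPKM ratio of Pfkm to Pfkl was 315 and 46.2 in AAV-Fgf7 ears, against at least 79.3 (for 3 counts of Pfkl) and 353 in control ears.

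Aldolase cleaves fructose bisphosphate, and Aldoa, the muscle and general form, was the highest of the 10 genes. Aldoa had 2841 and 2048 CPM in AAV-Fgf7 ears of rats 1 and 2, against 1845 and 4764 CPM in control ears of rats 1 and 2. The order of the libraries was that of Pfkm, with the control ears at both ends. The ratio was 1.54 in rat 1 and 0.430 in rat 2, and the log2 fold change was -0.43 (SE 0.44). The near-identical row Aldoart1, a copy of Aldoa in the mouse gene set, had 88.0 and 69.9 CPM in AAV-Fgf7 ears, against 58.6 and 145 CPM in control ears. Reads that could come from either gene may have been split between them, so the level of Aldoa is uncertain. The FPKM ratio of Aldoa to Aldoc, the brain form, was 351 and 279 in AAV-Fgf7 ears, against 153 and 811 in control ears.

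The summed skeletal muscle markers and the summed cartilage markers stood in the same order of libraries as Pfkm and Aldoa. From high to low, the summed muscle markers ran from the control ear of rat 2 through the AAV-Fgf7 ears of rats 1 and 2 to the control ear of rat 1. Pfkm, Aldoa and Ldha, 3 of the 8 tested genes (37.5%), had this order, as did 467 of 6370 tested genes (7.33%). So did 12 of 20 tested muscle genes (60%), which are themselves part of the sum that set the order. Acta1 alone had 38188 of the 72105 CPM of that sum in the control ear of rat 2. Log2 fold changes were negative in all 20 tested muscle genes, with a median of -0.74, and in 3327 of 6370 tested genes. None of the 20 passed. The muscle sum was lower in the AAV-Fgf7 ear in rat 2 (18976 against 72105 CPM) and higher in rat 1 (37453 against 17270 CPM). Cartilage markers summed to 887 and 549 CPM in AAV-Fgf7 ears of rats 1 and 2, against 484 and 1770 CPM in control ears. Acan, Comp and Col11a1, 3 of the 5 tested cartilage genes and themselves part of this sum, had its order. Adipocyte markers summed to 133 and 75.3 CPM in AAV-Fgf7 ears, against 95.4 and 259 CPM in control ears, and were likewise highest in the control ear of rat 2. The order was thus shared by more than 1 tissue list. The 3 genes nearest to Pfkm over the 4 libraries were Hnrnph3 (root mean square difference 0.0693), Hfe2 (0.0709) and Fhl1 (0.0765). Hfe2, which encodes hemojuvelin, an iron regulator made in muscle and liver, had 65.7 and 34.9 CPM in AAV-Fgf7 ears, against 22.5 and 98.1 CPM in control ears. Fhl1, a LIM-domain protein of muscle, and Hnrnph3, an RNA-binding protein, showed the same order. The shared order follows from the choice of these genes as the nearest to Pfkm among 5861 compared. The part of muscle, cartilage or fat RNA in the levels of Pfkm, Aldoa and Ldha was not tested.

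**Figure D2:**
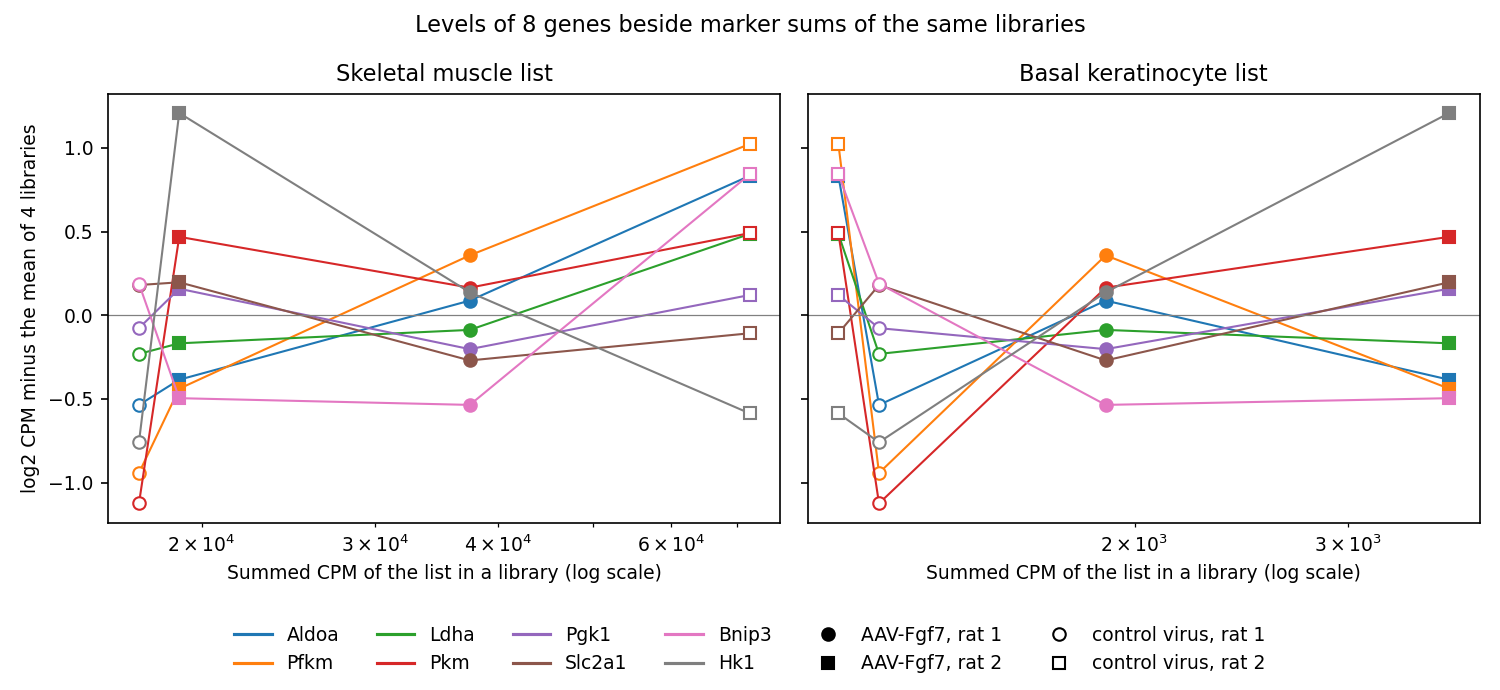
Log2 CPM of the 8 tested genes, each minus its own mean over the 4 libraries (vertical axis), against the summed CPM of a marker list in the same library (horizontal log axis), skeletal muscle on the left and basal keratinocyte on the right; lines join the libraries of a gene, filled points are AAV-Fgf7 and open points control virus. Along the muscle axis Aldoa, Pfkm, Ldha and Pkm are lowest in the control ear of rat 1 and highest in the control ear of rat 2. Along the keratinocyte axis Hk1 is highest in the AAV-Fgf7 ear of rat 2.

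Isoform ratios within a library were free of the scaling between libraries. Of 8 pairs of a muscle-rich form and another form of the same step, 6 were counted in every library. The partners included Aldoc, the brain form, and Ldhb, the heart-rich form, so not every partner was the more widely expressed form. In 5 of these 6 the ratio was highest in the control ear of rat 2, and in Hk2 to Hk1 it was highest in the control ear of rat 1. The FPKM ratio of Pgam2 to Pgam1, the muscle and general phosphoglycerate mutases, was 2.98 and 0.827 in AAV-Fgf7 ears, against 1.04 and 5.37 in control ears. That of Eno3 to Eno1, the muscle and general enolases, was 7.87 and 17.5 in AAV-Fgf7 ears, against 8.01 and 23.5 in control ears. These 4 ratios rested on few counts of Eno1, 44 and 9 in AAV-Fgf7 ears, against 17 and 18 in control ears. The ratio of Slc2a4 to Slc2a1 was 0.763 and 0.238 in AAV-Fgf7 ears, against 0.270 and 1.12 in control ears. The groups overlapped in these 3 pairs and in those of aldolase and glycogen phosphorylase, and the hexokinase pair was the 1 of 6 in which they did not. The highest ratio of a pair was 2.99 to 6.49 times its lowest.

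**Figure D3:**
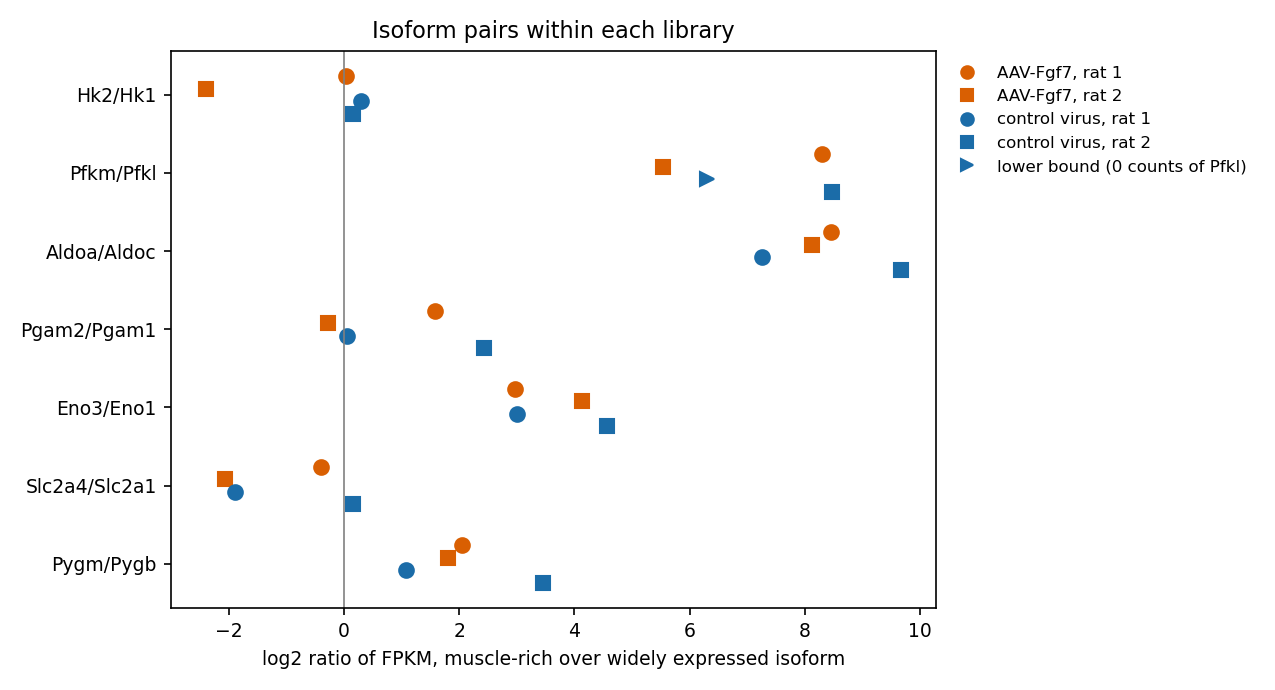
Log2 ratio of FPKM, the muscle-rich over the other form of the same step, for 7 of the pairs. The axis calls the other form widely expressed, although Aldoc is the brain form. Each point is a library, with AAV-Fgf7 drawn above control virus within a pair, and the triangle is a lower bound where Pfkl had 0 counts. In 5 of the 6 pairs counted in every library the control ear of rat 2 is the highest point.

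The later steps held the most abundant of the widely expressed genes. Pgk1, phosphoglycerate kinase, the first step that yields ATP, had 625 and 802 CPM in AAV-Fgf7 ears of rats 1 and 2, against 681 and 781 CPM in control ears of rats 1 and 2. The groups overlapped and the 4 values lay close together, with a log2 fold change of -0.04 (SE 0.21). Its near-copy Pgk1-rs7 had 45.4 and 47.9 CPM in AAV-Fgf7 ears, against 34.6 and 40.2 CPM in control ears, so the Pgk1 level is uncertain in the same way as that of Aldoa.

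Pkm, pyruvate kinase, whose splice forms the gene counts do not separate, had 718 and 886 CPM in AAV-Fgf7 ears of rats 1 and 2, against 294 and 899 CPM in control ears of rats 1 and 2. The control ear of rat 1 was far below the other 3, which lay close together. The ratio was 2.44 in rat 1 and 0.985 in rat 2, and the log2 fold change was 0.43 (SE 0.49). Without the control ear of rat 2 it was 1.45, and without the control ear of rat 1 it was -0.17. Each of these fits leaves 1 control library, so the spread comes from the AAV-Fgf7 pair alone.

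Ldha, the lactate dehydrogenase subunit rich in muscle and in glycolytic tissue, had 79.6 and 75.3 CPM in AAV-Fgf7 ears of rats 1 and 2, against 72.1 and 119 CPM in control ears of rats 1 and 2. The groups overlapped, and the control ear of rat 2 stood above the other 3. The ratio was 1.10 in rat 1 and 0.636 in rat 2, with a log2 fold change of -0.30 (SE 0.30). Ldhb, its heart-rich partner, had 0 and 1 counts in AAV-Fgf7 ears, against 1 and 0 counts in control ears. Gapdh, a glycolytic enzyme of every cell, had 0 and 1 counts in AAV-Fgf7 ears, against 0 and 0 counts in control ears. With such a gene near 0, a low count on a row of this mouse gene set does not show that a transcript was scarce. This limit holds for Hk1, Hk2 and Pfkl and for the order of the genes by FPKM. It also holds for ratios to a form with few counts, such as Pfkm to Pfkl and Eno3 to Eno1. Gapdh was named after its values were seen.

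Bnip3, whose row is ENSMUSG00000078566, a mouse gene model on the minus strand at chr7:138890836-138909519, had 28.6 and 29.5 CPM in AAV-Fgf7 ears of rats 1 and 2, against 47.3 and 74.4 CPM in control ears of rats 1 and 2. Both AAV-Fgf7 ears were below both control ears, the AAV-Fgf7 pair were almost equal, and the control ear of rat 2 was the highest. The ratio was 0.605 in rat 1 and 0.396 in rat 2. The means were 29.0 ± 0.571 CPM in AAV-Fgf7 ears and 60.9 ± 19.1 CPM in control ears (SD, n = 2 each). The log2 fold change was -1.07 (SE 0.33, edgeR adjusted p = 0.9995), at rank 56 of 6370 by p and at rank 81 from the lowest fold change. The counts were 41 and 43 in AAV-Fgf7 ears and 63 and 113 in control ears, and the exact 95% Poisson intervals were 20.6 to 38.9 and 21.3 to 39.7 CPM in AAV-Fgf7 ears, against 36.4 to 60.5 and 61.3 to 89.4 CPM in control ears. The intervals overlapped in rat 1 and did not in rat 2. Bnip3 was under 0.05 before adjustment by DESeq2 too, and by edgeR with the rat as a block (log2 fold change -1.03). Without the control ear of rat 2 the log2 fold change was -0.70. Bnip3 was no longer under 0.05 before adjustment when that ear, or either AAV-Fgf7 ear, was left out (log2 fold changes of -1.05 without rat 1 and -1.09 without rat 2).

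Bnip3 did not follow the order of the muscle sum. Its control ear of rat 1, the library with the lowest muscle sum, was above both AAV-Fgf7 ears. In both Bnip3 and the muscle sum the control ear of rat 2 was the highest. Of 20 tested muscle genes 12 had the order of the sum, whereas Tnnc1 had the order of Bnip3. Tnnc1 had 6.99 and 7.53 CPM in AAV-Fgf7 ears, against 10.5 and 94.1 CPM in control ears. The part of muscle RNA in the Bnip3 level was not tested. The 3 genes nearest to Bnip3 were Arhgef40 (root mean square difference 0.0823), Chrdl1 (0.104) and Snx24 (0.119). Arhgef40 had 48.9 and 45.9 CPM in AAV-Fgf7 ears, against 68.4 and 119 CPM in control ears. Chrdl1, a secreted BMP antagonist, had 13.3 and 13.7 CPM in AAV-Fgf7 ears, against 19.5 and 30.3 CPM in control ears. Bnip3l, the closest relative of Bnip3, named after its values were seen, had 23.8 and 31.5 CPM in AAV-Fgf7 ears, against 33.8 and 27.7 CPM in control ears, and its groups overlapped (log2 fold change -0.15, SE 0.34). The difference between the 2 relatives was not tested.

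**Figure D4:**
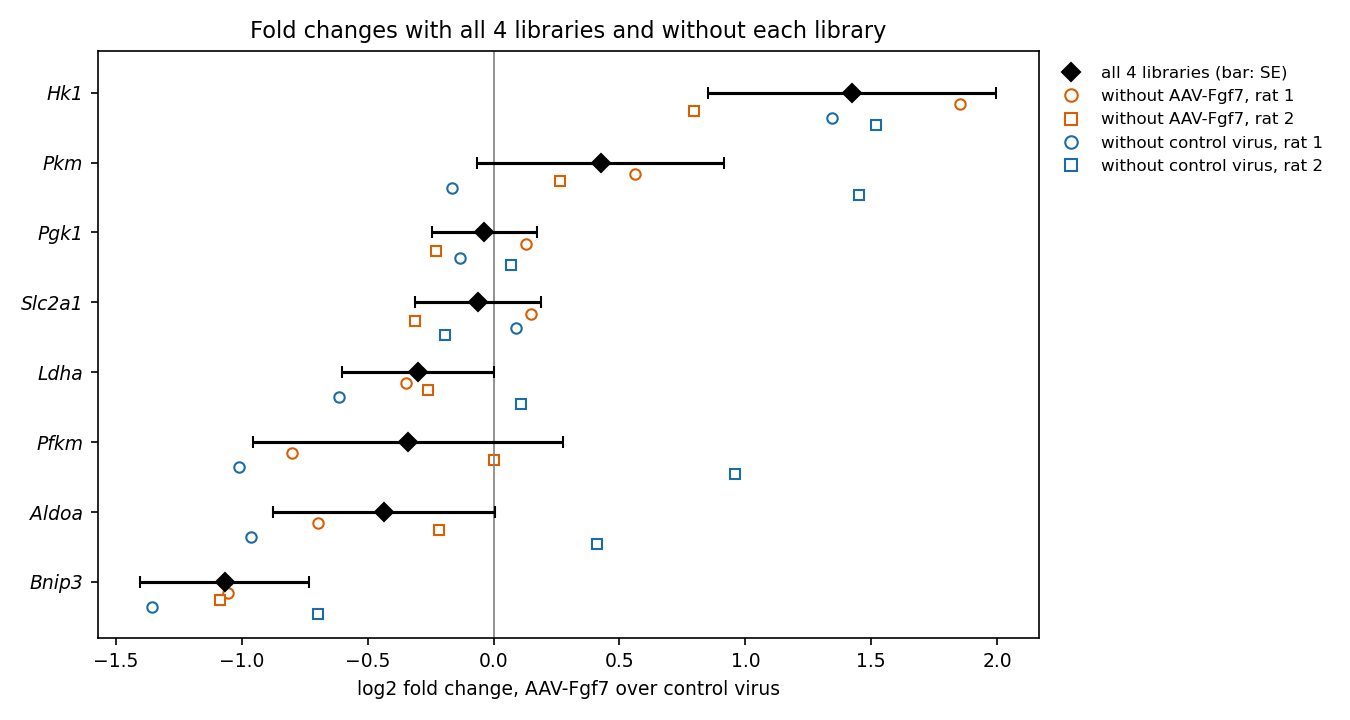
Log2 fold change (AAV-Fgf7 over control) of the 8 tested genes from edgeR with all 4 libraries (diamonds, bars are SE) and without each library in turn (open points). Hk1 stays above 0 and Bnip3 below 0 throughout, and Slc2a1, Pfkm, Aldoa, Pgk1, Pkm and Ldha have points on both sides of 0.

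Bnip3 is the gene of the 10 with the lowest p, though it did not pass. Ldha and Slc2a1 are further known targets of the hypoxia-inducible factors, and their groups overlapped. The promoter windows of Bnip3, Ldha and Slc2a1 are shown as a description. The windows are rat RefSeq sequence of build GRCr8, 250 bases before to 50 after the gene start, 5′ to 3′ on the gene's strand. Capitals mark ACGTG on either strand, a form of the core of the hypoxia response element. The CACGTG palindrome is in capitals where the motif occurs on both strands. The other form of the core, GCGTG, was neither marked nor counted. The Bnip3 window lies at chr1:203154913-203155212 on the minus strand, that of Ldha at chr1:106507842-106508141 on the plus strand and that of Slc2a1 at chr5:138002272-138002571 on the plus strand.
Bnip3: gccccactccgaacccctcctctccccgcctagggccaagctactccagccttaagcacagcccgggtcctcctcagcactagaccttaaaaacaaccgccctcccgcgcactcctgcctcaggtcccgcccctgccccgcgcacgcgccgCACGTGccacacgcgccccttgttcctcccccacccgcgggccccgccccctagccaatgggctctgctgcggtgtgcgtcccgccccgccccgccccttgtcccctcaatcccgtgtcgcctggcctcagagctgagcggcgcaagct
Ldha: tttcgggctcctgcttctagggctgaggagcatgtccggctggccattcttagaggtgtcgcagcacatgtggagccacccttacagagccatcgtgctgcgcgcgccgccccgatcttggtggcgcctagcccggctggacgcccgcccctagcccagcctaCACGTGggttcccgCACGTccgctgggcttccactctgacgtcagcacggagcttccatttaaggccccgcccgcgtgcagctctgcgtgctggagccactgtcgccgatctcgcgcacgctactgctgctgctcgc
Slc2a1: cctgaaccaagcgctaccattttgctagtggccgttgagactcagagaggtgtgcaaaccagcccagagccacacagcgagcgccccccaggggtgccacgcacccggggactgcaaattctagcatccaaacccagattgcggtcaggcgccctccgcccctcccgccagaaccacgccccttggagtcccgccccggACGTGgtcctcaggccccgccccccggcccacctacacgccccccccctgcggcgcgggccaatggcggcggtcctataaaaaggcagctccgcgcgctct
The motif lay 99 bases before the start in Bnip3, 87 and 73 bases before it in Ldha, and 51 bases before it in Slc2a1. In Bnip3 and Ldha, 1 site also overlapped the E-box CANNTG. Windows were found for 9 of the 10 genes and not for Pgk1, 12 in all since Hk1 has 2 and Aldoa 3, and 6 of the 12 held ACGTG on either strand, against 6444 of 33469 windows of that length (19.3%). A match is a description of the letters and not a site of binding. Bnip3, Ldha and Slc2a1, each with the motif, had log2 fold changes of -1.07, -0.30 and -0.06.

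No other gene of the pathway passed. The lists of 131 genes on glucose use, hypoxia, mitophagy and muscle wasting held 69 tested genes, of which 0 passed by edgeR and 0 by DESeq2, and 2, Hk1 and Bnip3, had an unadjusted p under 0.05 by edgeR, against 2.32% of all tested genes. Of 24 glycolytic enzymes 12 were tested, 4 with positive and 8 with negative log2 fold changes and a median of -0.11. The lowest p among them after Hk1, Ldha and Aldoa was that of Pgam1, with 112 and 173 CPM in AAV-Fgf7 ears, against 131 and 109 CPM in control ears (log2 fold change 0.25, SE 0.27). Of 18 glucose and lactate transporters 5 were tested, 1 with a positive and 4 with negative log2 fold changes and a median of -0.58. Slc2a13, a proton-linked inositol transporter, had 5.59 and 7.53 CPM in AAV-Fgf7 ears, against 9.01 and 11.2 CPM in control ears. Slc2a6, a glucose transporter of the same family, had 5.59 and 6.85 CPM in AAV-Fgf7 ears, against 30.0 and 1.32 CPM in control ears. Slc16a3, which exports lactate, had 23.1 and 21.2 CPM in AAV-Fgf7 ears, against 24 and 17.1 CPM in control ears.

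Of 19 regulators of glycolysis 9 were tested, 2 with positive and 7 with negative log2 fold changes and a median of -0.22. Pdp1, which switches pyruvate dehydrogenase on, had 184 and 162 CPM in AAV-Fgf7 ears, against 224 and 263 CPM in control ears (log2 fold change -0.50, SE 0.20), and the groups did not overlap. Pfkfb3, which makes the activator of phosphofructokinase, had 15.4 and 7.53 CPM in AAV-Fgf7 ears, against 24 and 18.4 CPM in control ears (log2 fold change -0.88, SE 0.48). Its groups did not overlap either. Pdk3, which switches pyruvate dehydrogenase off, had 93.6 and 121 CPM in AAV-Fgf7 ears, against 87.1 and 76.4 CPM in control ears. Bpgm, which makes bisphosphoglycerate, had 53.8 and 47.3 CPM in AAV-Fgf7 ears, against 59.3 and 68.5 CPM in control ears. Of these 9 regulators 1 lay above and 3 below in both AAV-Fgf7 ears, against 14.8% above and 13.3% below over all tested genes.

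Of 24 genes of the hypoxia response 15 were tested, 4 with positive and 11 with negative log2 fold changes and a median of -0.15. Bnip3 was placed in the mitophagy list and not in this one. Epas1, which encodes HIF-2 alpha, had 16.1 and 8.90 CPM in AAV-Fgf7 ears, against 17.3 and 25.7 CPM in control ears (log2 fold change -0.78, SE 0.47). Bhlhe40, a circadian and hypoxia-induced repressor, had 34.9 and 37.7 CPM in AAV-Fgf7 ears, against 41.3 and 54.0 CPM in control ears. Ddit4, an inhibitor of mTORC1, had 89.4 and 97.9 CPM in AAV-Fgf7 ears, against 65.3 and 184 CPM in control ears. Of 20 genes of mitophagy and autophagy, Bnip3 included, 19 were found and 12 were tested, 4 with positive and 8 with negative log2 fold changes and a median of -0.07. Gabarap, which Bnip3 binds on the autophagosome, had 1218 and 1281 CPM in AAV-Fgf7 ears, against 1525 and 1341 CPM in control ears (log2 fold change -0.20, SE 0.18), and the groups did not overlap. Tfeb, which switches on lysosome genes, had 14.0 and 11.6 CPM in AAV-Fgf7 ears, against 9.01 and 29.0 CPM in control ears. Atg7, an activating enzyme of autophagy, had 53.8 and 79.5 CPM in AAV-Fgf7 ears, against 69.9 and 32.3 CPM in control ears.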

How the data were processed

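The authors deposited raw counts per gene and FPKM values (counts per gene length and library size) for 4 libraries. Per the submitters' processing notes the build was Rnor_6.0 (rn6), yet all 54532 identifiers are mouse Ensembl genes, and 0 occur in a rat RefSeq gene table (GRCr8), which holds all 10 member symbols. The sources used here name neither the aligner and counter nor the mouse build of the listed coordinates, nor whether reads were aligned to mouse or rat sequence. Deposited FPKM equalled count over length and an effective library total (largest relative difference 5.1e-15). The authors' group means of FPKM were not used, and 0 other sample columns occurred.

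Counts were filtered (filterByExpr, 6370 genes, 98.9% of counts), scaled by TMM (factors 0.949 to 1.03) and compared by the quasi-likelihood F test (two-sided) of edgeR 4.0.16, R 4.3.3, with Benjamini-Hochberg adjustment over all tested genes at 0.05. The common biological coefficient of variation was 29.1%. SE is the log2 fold change over the root of F. Levels in CPM are per library. The p-values of the main fit set the group difference against the spread between the 2 libraries of a group. The same 2 rats gave both groups, and the main fit did not use this pairing. Alternatives used limma 3.58.1, DESeq2 1.42.0, other scalings, other filters, FPKM with pseudocounts, isoform ratios from raw counts, each library left out, and the rat as a block. Scripts were tested on simulated data. The rat number pairs libraries by animal, although deviations of same-numbered libraries had r = -0.30 (Spearman -0.26) over 6370 genes. No 2 libraries agreed within sampling noise (chi-square per degree of freedom 13.0 between AAV-Fgf7 libraries, 21.6 between control libraries and 6.89 to 23.9 between groups).

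All 10 genes are named, with up to 4 members of lowest p of each list, isoform partners and the 3 nearest genes to Hk1, Pfkm and Bnip3 among tested protein-coding genes, of which 1 is not reported here. The members and lists were chosen with earlier results of these data known. Intervals cover counting error only, since reads without molecular identifiers are not independent molecules.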

Additional observations from a re-analysis of the deposited data

How the results depend on the processing

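The count of genes called was 0 in the edgeR fit and 0 under RLE factors, library totals, scaling without muscle genes, protein-coding genes without ribosomal protein genes, a mean count of 10, limma-voom, 3 FPKM fits and the rat as a replicate block (75 genes under 0.05 before adjustment, against 148). It was 3 with no filter (12902 genes) and 4 with DESeq2, and 0 to 59 when each library was left out, with 59 called without the control ear of rat 1 and 40 without that of rat 2. A crossed replicate block, chosen after seeing the data, called 0, with 301 genes under 0.05 before adjustment. The ratios within a rat rest on the placing of the second AAV-Fgf7 column with rat 2. Members of the pathway lists that passed were 0 throughout, except 1 without the control ear of rat 1 (Pygm) and 1 without that of rat 2 (Pkm), a range of 0 to 1. Leaving out each library gave log2 fold changes of -0.31 to 0.15 for Slc2a1, -1.01 to 0.96 for Pfkm, -0.96 to 0.41 for Aldoa, -0.23 to 0.13 for Pgk1, -0.17 to 1.45 for Pkm and -0.61 to 0.11 for Ldha, and library totals alone gave 0.010 for Pgk1; the cause was not tested. Hk1 (0.79 to 1.85 over the libraries left out, 0.70 to 1.47 elsewhere, the lowest on FPKM with a pseudocount of 1) and Bnip3 (-1.35 to -0.70) kept their direction in all 17 alternatives, with adjusted p of 0.662 to 0.99997 for Hk1 and 0.0895 to 0.99997 for Bnip3. The block changed no other call. In the fits that leave out a library, the lone library is assumed to vary like the other group's. Depth limits Hk1, Hk2 and Pfkl, at no more than 30 counts a library.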

Other observations

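Glycogen metabolism, which feeds glycolysis in muscle, held no gene that passed. Of 17 genes 10 were tested, 1 with a positive and 9 with negative log2 fold changes and a median of -0.35, and 1, Ugp2, had both AAV-Fgf7 ears below both control ears, against 13.3% of all tested genes. Ugp2, which makes UDP-glucose, had 23.8 and 21.2 CPM in AAV-Fgf7 ears, against 24.8 and 67.2 CPM in control ears (log2 fold change -1.03, SE 0.51). Pygm, the muscle glycogen phosphorylase, had 104 and 61.0 CPM in AAV-Fgf7 ears, against 43.6 and 296 CPM in control ears (log2 fold change -1.04, SE 0.80). Phka1, a muscle subunit of phosphorylase kinase, had 27.2 and 13.7 CPM in AAV-Fgf7 ears, against 15.0 and 52.0 CPM in control ears. Gyg, which primes glycogen, had 168 and 143 CPM in AAV-Fgf7 ears, against 133 and 261 CPM in control ears. The FPKM ratio of Pygm to Pygb was 4.12 and 3.50 in AAV-Fgf7 ears, against 2.11 and 11 in control ears.

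Of 12 genes of muscle wasting 9 were tested, 4 with positive and 5 with negative log2 fold changes and a median of -0.36, and 1 lay above and 4 below in both AAV-Fgf7 ears, against 14.8% above and 13.3% below over all tested genes. Klf15, a glucocorticoid-induced factor, had 27.2 and 24.7 CPM in AAV-Fgf7 ears, against 31.5 and 48.7 CPM in control ears. Foxo3, which drives atrophy genes, had 58.7 and 69.9 CPM in AAV-Fgf7 ears, against 43.6 and 50.04 CPM in control ears. Fbxo32, the ubiquitin ligase atrogin-1, had 17.5 and 6.16 CPM in AAV-Fgf7 ears, against 15.8 and 23.0 CPM in control ears. Mstn, which limits muscle growth, had 17.5 and 4.11 CPM in AAV-Fgf7 ears, against 18.0 and 19.8 CPM in control ears. Of these 4 named genes, the groups of Foxo3, Klf15 and Mstn did not overlap and those of Fbxo32 did, and no gene of the list passed.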
